A study of Mus musculus with 8 samples.

Results

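The microRNAs miR-132-3p and miR-212-3p were followed in mouse hearts after myocardial infarction (MI). They were selected by identity, as the mature miRNA probe sets MIMAT0000144_st and MIMAT0000659_st, and make up 2 of the 1908 mature miRNA probe sets measured. Hearts came from male C57/BL6 mice labelled 8 weeks old and were taken 21 days after surgery. In 4 mice, titled MI+nc 1, 4, 5 and 7, the left anterior descending coronary artery had been ligated, and 4 mice, titled Sham+nc 1 to 4, had a sham operation. The suffix nc, carried by both groups, is not explained in the labels, and neither is the region of the heart that was sampled. Total RNA from each heart was read on 1 Affymetrix miRNA 4.0 array, so each group had 4 independent values per miRNA.

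MicroRNAs are short RNAs that guide silencing proteins to messenger RNAs, mainly through the bases near their 5′ end, called the seed, and lower the output of those messages. The genes of miR-132 and miR-212 lie side by side and are transcribed together. The pair is known from neurons, where its transcription follows the activity-dependent factor CREB. In mice, raising it in heart muscle cells has been described to cause enlargement of the heart and heart failure, in part through the transcription factor Foxo3, and these miRNAs are therefore counted among the hypertrophy miRNAs. The comparison addressed here is whether their levels differed in the infarcted heart at 21 days.

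The mature sequences are shown because they explain why the pair is treated as 1 family. They are given 5′ to 3′ from RefSeq (mouse build GRCm38.p6), with the seed, bases 2 to 8, in capitals. Both members were found there by name, as were the opposite arms of their precursors.
miR-132-3p: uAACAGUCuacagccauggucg
miR-212-3p: uAACAGUCuccagucacggcca
miR-132-5p: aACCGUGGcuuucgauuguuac
miR-212-5p: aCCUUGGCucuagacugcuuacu
The 3p arms share the seed AACAGUC, which pairs with the letters GACUGUU in a message. Of the 1679 mature mouse miRNA names in that collection, 2 carry this seed, and these are the 2 members. They are identical at 17 of 22 positions. Counted from 1 at the 5′ end, with the base of miR-132-3p first and that of miR-212-3p last, the 5 differences are A10C, C14U, U17C, U20C and G22A. All lie outside the seed. The 5p arms have seeds that differ from this one and from each other. No row of the table could be assigned to the 5p arms or to the precursors, so their levels were not analysed here.

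The hairpin precursors show how close the genes are. Both are given from RefSeq in the same build, with the 5p and 3p arms in capitals.
Mir212: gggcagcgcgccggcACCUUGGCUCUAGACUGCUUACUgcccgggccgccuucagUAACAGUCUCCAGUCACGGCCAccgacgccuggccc
Mir132: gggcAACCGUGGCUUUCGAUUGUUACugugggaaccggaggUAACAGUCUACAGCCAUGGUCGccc
Mir212 lies at chr11:75173388-75173478 and Mir132 at chr11:75173682-75173747, both on the plus strand, with 203 bases between them. No other gene of the RefSeq annotation overlaps the pair. The nearest annotated genes on chromosome 11 are Hic1, 3132 bases away on the side of Mir212, and Ovca2, 2195 bases away on the side of Mir132. Within the precursors, miR-132-3p takes bases 42 to 63 of 66 and miR-212-3p bases 56 to 77 of 91.

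Neither miRNA differed detectably between MI and sham hearts. Levels are log2 intensities, on which 1 unit is a doubling of the signal. Heart tissue was measured in bulk, so fewer cells that make a miRNA and less of it per cell cannot be told apart. Both probe sets read well above the dimmest signals on the arrays. The lowest value of miR-132-3p in any heart lay 6.28 units, and that of miR-212-3p 3.23 units, above 2.06, the highest value among 17 dim spike-in controls. These controls were picked for their low mean on the same arrays, so 2.06 is not an independent detection limit. The lowest value of any probe set was 0.617. By its mean over the 8 hearts, miR-132-3p was the 114th brightest of the mature probe sets and miR-212-3p the 227th. These places describe signal and not amounts, since each probe set captures its own target with its own efficiency.

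For miR-132-3p, MI hearts 1, 4, 5 and 7 read 9.18, 8.43, 8.77 and 8.97 log2 units, against 8.33, 8.74, 9.37 and 8.99 in sham hearts 1 to 4. The highest and the lowest value both belonged to sham hearts, so that all MI values lay inside the sham range. The mean was 8.84 ± 0.317 in MI hearts and 8.86 ± 0.434 in sham hearts (SD, n = 4 each). The difference, MI minus sham, was -0.02 with a standard error of 0.241, and its 95% interval ran from -0.58 to 0.53 (limma, adjusted p = 0.984). As a fold of MI over sham this is 0.985, with an interval of 0.670 to 1.45. The groups overlapped fully, and permuting the group labels in all 70 ways gave p = 0.971 (exact permutation test, two-sided), where the smallest possible is 0.0286.

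For miR-212-3p, MI hearts 1, 4, 5 and 7 read 6.55, 5.29, 6.03 and 5.65 log2 units, against 5.63, 5.61, 6.63 and 6.36 in sham hearts 1 to 4. Here the lowest value was that of MI heart 4 and the highest that of sham heart 3, with the other hearts of both groups mixed between them. The mean was 5.88 ± 0.541 in MI hearts and 6.06 ± 0.516 in sham hearts (SD, n = 4 each). The difference was -0.18 with a standard error of 0.329, and its 95% interval ran from -0.94 to 0.58 (limma, adjusted p = 0.972). The fold of MI over sham was 0.884, with an interval of 0.523 to 1.49. The exact two-sided permutation test gave p = 0.629.

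**Figure D1:**
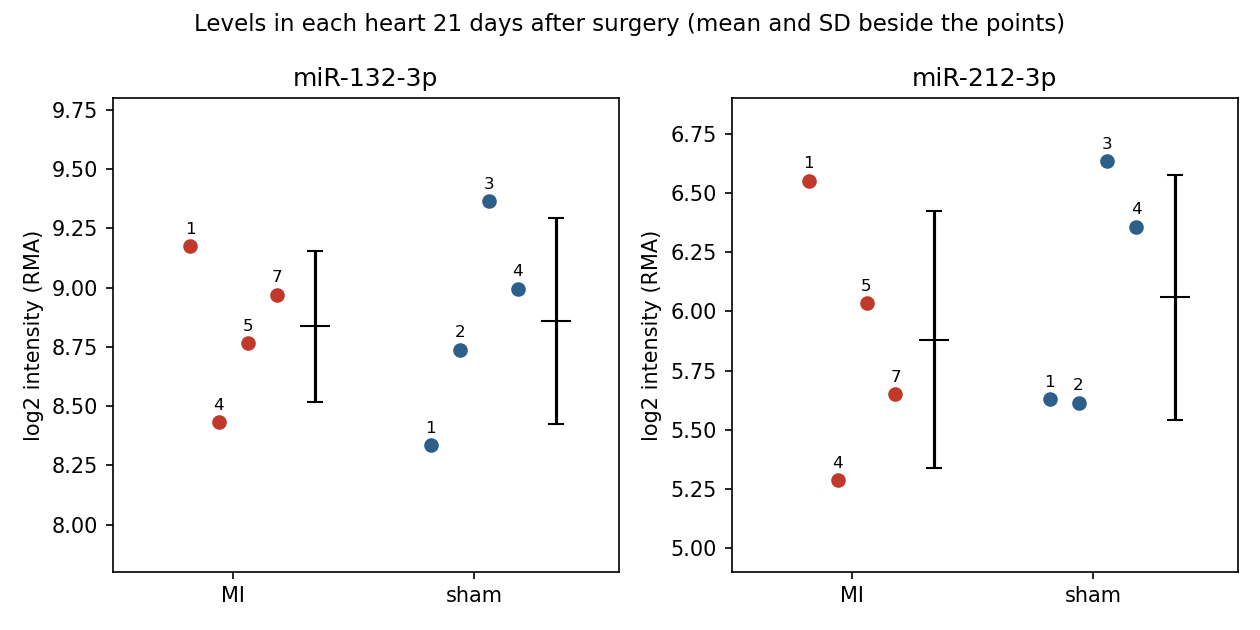
Log2 intensity of miR-132-3p (left) and miR-212-3p (right) in each heart, numbered as in the sample titles, with MI hearts in red and sham hearts in blue. Black marks show the mean and SD (n = 4); the vertical axes do not start at 0 and differ between the panels. In both panels the MI and sham points overlap, and sham heart 3 and MI heart 1 are the highest.

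The intervals set what these 8 hearts could show. For miR-132-3p a rise beyond 1.45-fold, or a drop to under 0.670 of the sham level, lies outside the 95% interval. For miR-212-3p the matching bounds are 1.49-fold and 0.523, so that a fall to nearly the lower bound could not be told from no change. These bounds hold for the fit on the deposited values, and other fits gave narrower or wider ones. The fit with the replicate number as a block is left aside here. The 95% intervals of the other fits reached -0.74 and 0.69 log2 units for miR-132-3p, both with a heart left out. For miR-212-3p they reached -1.16 with a heart left out and 0.82 log2 units after quantile normalization. Single hearts of a group lay further apart than the group means did. A range of single hearts and a difference of means are unlike measures. Between its lowest and highest heart, miR-132-3p spanned 1.67-fold in MI and 2.04-fold in sham hearts, and miR-212-3p spanned 2.40-fold in MI and 2.02-fold in sham hearts. The direction of the differences is not settled either. Leaving out sham heart 3 gave 0.15 for miR-132-3p and 0.01 for miR-212-3p, and leaving out MI heart 4 gave 0.11 and 0.02 (limma, adjusted p from 0.968 to 0.994).

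Changes elsewhere on the same arrays give the scale. Of the 1908 mature probe sets, 10 passed an adjusted p of 0.05 in limma, all of them higher in MI hearts, which is a background of 0.524%. That count was 16 after quantile normalization, 25 after centring on the brightest 25% of probe sets and 17 without sham heart 3. Neither of the 2 members was among the 10, whose smallest difference was 1.53 log2 units. Of the 10, 3 had a mean of at least 5, and the others were dimmer than both members. At an unadjusted p under 0.05 the background was 6.29%, and 4.14% of mature probe sets had MI and sham values that did not overlap. Neither member met either criterion, so 0 of 2 stood against these shares. Among the 271 mature probe sets whose mean was at least 5, the median difference was -0.11 and the median size of a difference was 0.246. Of these bright probe sets, 4.06% had a smaller difference in size than miR-132-3p, and 37.3% had a smaller one than miR-212-3p. The heart-to-heart SD within groups was 0.380 for miR-132-3p and 0.529 for miR-212-3p, beside a median of 0.404 for the bright probe sets, so the pair was neither unusually steady nor unusually variable.

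**Figure D2:**
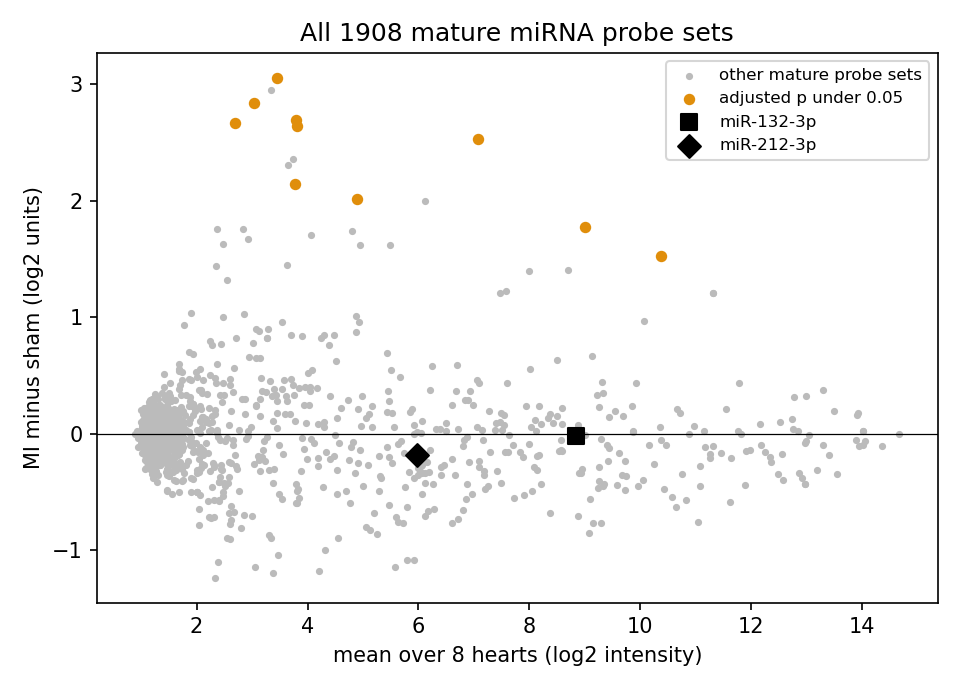
Mean log2 intensity over the 8 hearts (horizontal) against the difference MI minus sham in log2 units (vertical) for the 1908 mature miRNA probe sets, 1 point each. Orange points passed an adjusted p of 0.05 in limma; miR-132-3p (black square, at -0.02) and miR-212-3p (black diamond, at -0.18) lie near the line at 0.

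The miRNAs of this cluster did not separate from each other either. The log2 value of miR-212-3p minus that of miR-132-3p was taken within each array. The size of this value reflects probe efficiency, and only its change between groups is read. It was -2.62, -3.15, -2.73 and -3.32 in MI hearts 1, 4, 5 and 7, against -2.70, -3.12, -2.73 and -2.64 in sham hearts 1 to 4. The mean was -2.96 ± 0.331 in MI hearts and -2.80 ± 0.219 in sham hearts (SD, n = 4 each). MI minus sham came to -0.16, with a 95% interval from -0.64 to 0.33 (linear model) and p = 0.429 in the exact two-sided permutation test. A different response of the partners to infarction was thus not detectable with 4 hearts a group. Their signals may also not be fully separate, since binding of each miRNA to the other's probes was not tested.

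Across hearts the pair moved together. In the sham group, the hearts above the group mean of miR-132-3p were also above that of miR-212-3p. In the MI group this held for heart 1 but not for heart 7. Relative to its group mean, miR-132-3p was 0.51 higher in sham heart 3 and miR-212-3p 0.57 higher. In MI heart 1 they stood 0.34 and 0.67 above their group means. At the low end, sham heart 1 had deviations of -0.52 for miR-132-3p and -0.43 for miR-212-3p, and MI heart 4 had -0.40 and -0.59. Both miRNAs lay on the same side of their group means in 6 of 8 hearts, the exceptions being MI heart 5, with -0.07 for miR-132-3p and 0.15 for miR-212-3p, and MI heart 7, with 0.13 and -0.23.

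Over the 8 hearts, Pearson's r between the log2 values was 0.849 (exact permutation p = 0.00858, adjusted p = 0.0257 over 3 relations) and Spearman's rho was 0.905 (exact permutation p = 0.00456, adjusted p = 0.0137). With the group means subtracted r was 0.859. Without sham hearts 1 and 3, the hearts farthest from the median of miR-132-3p, r was 0.838 over 6 hearts (exact permutation p = 0.0347). After quantile normalization of the deposited values, run on the mature probe sets alone, r was 0.714 and no longer passed (exact permutation p = 0.0620). Each group alone has 4 hearts, too few for a value of its own. These correlations were added after the data were seen, and the permutation tests compare with no relation at all. Over the same arrays the other bright probe sets had a median r of 0.329 with miR-132-3p and 0.348 with miR-212-3p.

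**Figure D3:**
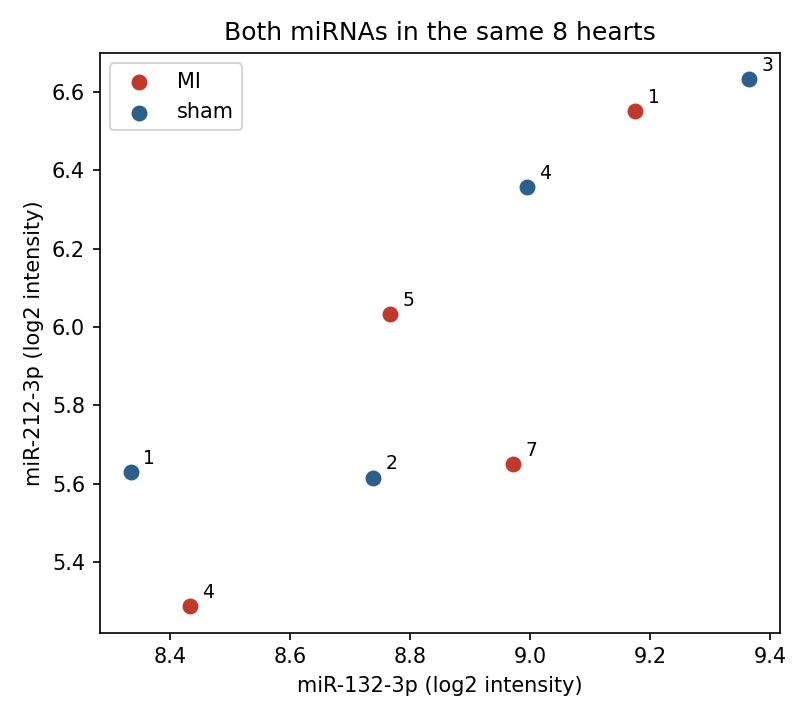
Log2 intensity of miR-132-3p (horizontal) against miR-212-3p (vertical) in the same 8 hearts, with MI hearts in red and sham hearts in blue, numbered as in the sample titles. The points run from MI heart 4 at the lower left to sham heart 3 at the upper right (Pearson's r = 0.849), with the groups intermixed; neither axis starts at 0.

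Features of the arrays were set beside this shared variation. The hybridisation controls, 15 probe sets (bioB and bioC) for bacterial RNA added to every sample, had means of 11.4, 11.6, 11.7 and 11.4 log2 units in MI hearts 1, 4, 5 and 7, against 11.2, 11.1, 11.9 and 11.6 in sham hearts 1 to 4. In the sham group the hearts with the higher controls, 3 and 4, were also those with more miR-132-3p and miR-212-3p signal. The MI group did not follow this order, since MI heart 1 had the lowest controls of its group and the highest values of both miRNAs, while MI heart 4 had higher controls and the lowest values. Over the 8 hearts the control mean correlated with miR-132-3p at r = 0.511 (rho = 0.524) and with miR-212-3p at r = 0.514 (rho = 0.548), and no exact permutation p passed, with 0.198 and 0.191 for r and 0.197 and 0.171 for rho before adjustment. Adjusted over the 3 relations these were 0.198 and 0.198 for r and 0.197 and 0.197 for rho. Without sham hearts 2 and 3 the values of r were 0.228 and 0.148 over 6 hearts. The number of mature probe sets above 2.06 was 519, 507 and 540 in MI hearts 1, 5 and 7 and slightly under these in MI heart 4, against 546, 544, 457 and 457 in sham hearts 1 to 4. The fewest were thus found in the sham hearts with the highest values of the pair, but in the MI heart with the lowest. The part of these features in the shared variation was not tested. Binding of each miRNA to the other's probes was not tested either, and with 17 of 22 bases in common the 2 signals may not be fully separate.

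The likeness of the pair was high but not confined to it. Among the other 270 bright probe sets, those whose mean was at least 5, the median r over the 8 hearts was 0.329 with miR-132-3p and 0.348 with miR-212-3p. By this measure miR-212-3p was the 24th most like miR-132-3p, and miR-132-3p the 13th most like miR-212-3p. The probe set with the most similar profile was MIMAT0025580_st for miR-132-3p (r = 0.947) and MIMAT0009458_st for miR-212-3p (r = 0.948). The 5 closest to miR-132-3p had r of 0.925 or more and the 5 closest to miR-212-3p had r of 0.888 or more. These accessions are not paired with miRNA names in the files. All 10 differed between MI and sham hearts by -0.44 to 0.09 log2 units (limma, smallest adjusted p = 0.897). These correlations are descriptions over 8 arrays that share 1 normalization.

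**Figure D4:**
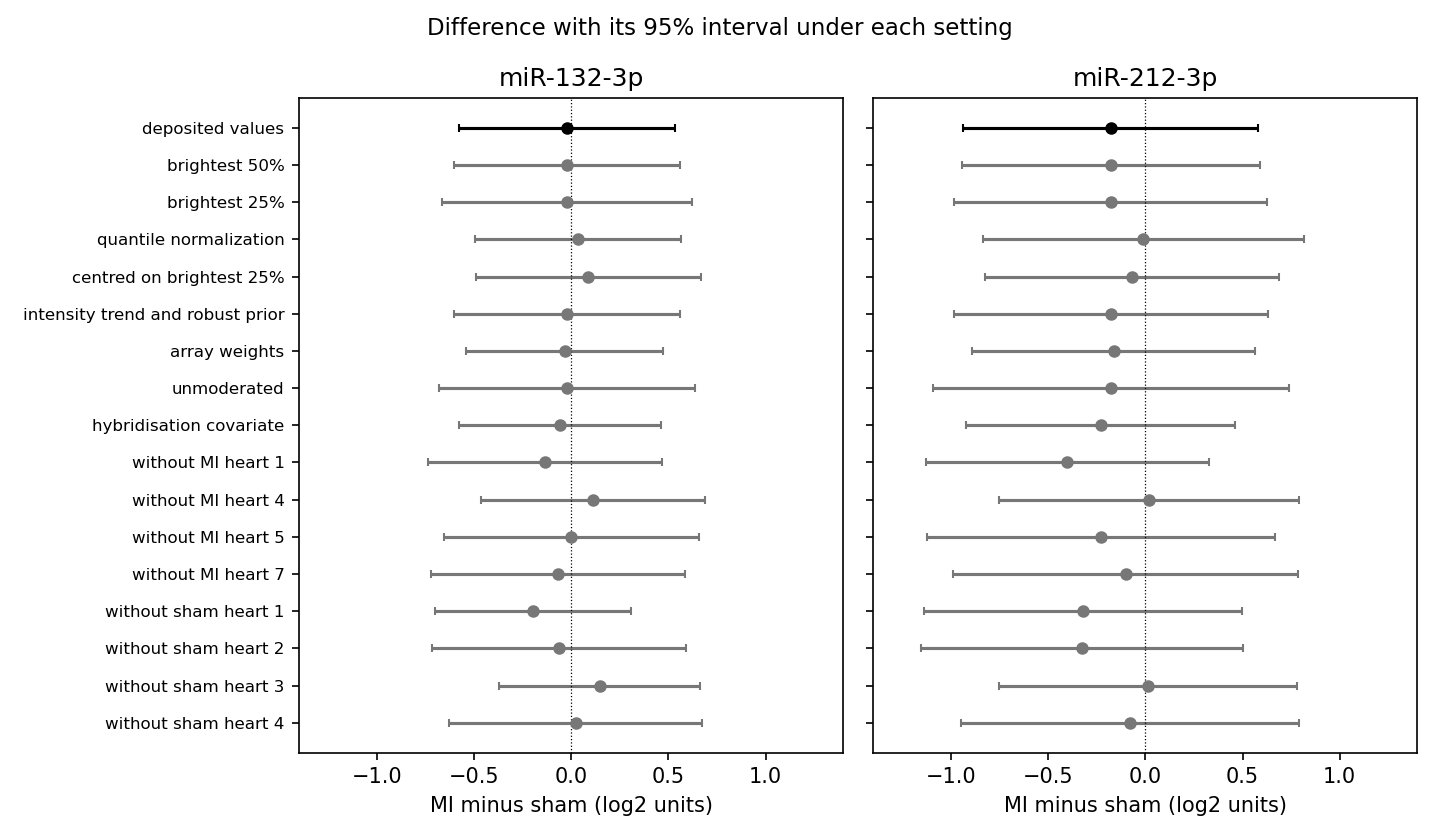
Difference MI minus sham in log2 units for miR-132-3p (left) and miR-212-3p (right), with its 95% interval, under the deposited values (black, top) and under other fits, scalings and left-out hearts (grey). Every interval shown crosses 0; the fits with the replicate number as a block and with the hairpins included are not drawn.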

How the data were processed

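The authors deposited log2 intensities from RMA, per the submitters' processing notes. This method subtracts background, brings the arrays to a common distribution and combines the probes of each set. The version and any detection calls were not given in the sources used here. Scanner files were not used here, and the number of arrays limits the precision.

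The members, the lists and the tests were chosen with earlier results of these data known. limma 3.58.1 (R 4.3.3; lmFit and eBayes, two-sided) was fitted on all 1908 mature probe sets and 8 arrays, with group as the only term, no filter, and Benjamini-Hochberg adjustment. Exact permutation tests and correlations used Python 3.11.15 with numpy 2.4.6, and the limma script was tested on simulated data. The hybridisation covariate and the correlations were added after the data were seen. The bright level of 5 came from earlier results. The control level of 2.06 was computed from these arrays, as the highest value of the spike-in controls chosen for their low mean.

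The named probe sets are the members and, for each, the closest of the 5 most correlated bright probe sets. The planned lists of growth-promoting, growth-restraining, heart muscle, fibroblast, endothelial, smooth muscle, leukocyte, red cell, neuron, liver and epithelium miRNAs were not tested, because rows other than the members could not be named from the tables given. For the same reason the tissue was not checked against marker miRNAs. The groups share replicate numbers 1 and 4. Hearts of the same number deviated from their group means with correlations of -0.38 and -0.11, so the numbers were not used as pairs.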

Additional observations from a re-analysis of the deposited data

How the results depend on the processing

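No alternative brought miR-132-3p or miR-212-3p past the threshold (limma lowest adjusted p 0.868 over 18 fits each, and the exact test besides). The sign of the miR-132-3p difference depended on the processing and on the hearts included. That of miR-212-3p changed only with the hearts included. For miR-132-3p the difference of -0.02 became 0.033 after quantile normalization, 0.087 after centring on the brightest 25% and 0.14 with the replicate number as a block, which leaves 1 residual degree of freedom. With the block, only the hearts numbered 1 and 4 inform the difference, since the other numbers occur in 1 group only. For miR-212-3p the difference ran from -0.23 (hybridisation covariate) to -0.01 (quantile normalization), and was -0.07 with the block. Leaving out each heart gave -0.20 to 0.15 for miR-132-3p and -0.40 to 0.020 for miR-212-3p. The difference between the 2 changes ran from -0.27 to -0.03 without each heart, and was -0.04 with quantile normalization and -0.21 with the block, which changed no call on the members. Their correlation over hearts was 0.781 to 0.926 without each heart, 0.887 after centring and 0.714 (p = 0.0620) after quantile normalization. The count of 10 called mature probe sets became 20 in the brightest 50%, 22 in the brightest 25%, 16 with quantile normalization, 25 after centring, 17 with array weights, 18 with an intensity trend and robust prior and 0 with the replicate block, and 7 to 17 without each heart, highest without sham heart 3. The causes were not tested. Alternatives for the lists and for the 5p arms and hairpins were not run, because their rows could not be named.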
